A study of Rattus norvegicus with 30 samples.

Results

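The genes described here encode the proteins of the cytosolic ribosome, and their messenger RNAs were followed on Affymetrix rat arrays in the left lobe of the liver of Sprague-Dawley females, 10 weeks old. A gene was taken as a member when a probe set carried its symbol alone and that symbol began with Rpl or Rps and a digit or was Rplp0 or Rpsa, with the Rps6k kinases left out. The rule found 47 genes on 53 probe sets, out of 14217 genes on 20826 probe sets with 1 symbol, and where a gene had several probe sets the one with the highest mean over the 30 arrays stood for it. Of the 47, 16 belong to the small subunit (40S) and 31 to the large subunit (60S). The symbol rule also admitted the paralogs Rpl3l, Rps27l and Rps4y2 and the pseudogenes Rpl37-ps2 and Rps4x-ps1, which leaves 42 genes of the ribosome itself. RefSeq holds 77 protein-coding symbols of this pattern, of which 42 are among the members, so the set covers only part of the ribosome. Rplp1, Rplp2 and Rps14, for example, are not members, because no probe set carried those symbols alone.

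Each of the 3 groups held 10 rats, with 1 array per rat. Rats handled for 1 day (labelled 24 h) were weighed, held in Broome restrainers, given water by gavage and bled from the tail vein on that day, with euthanasia on day 2. Rats handled for 4 days (labelled 96 h) had the restraint and gavage daily and the tail bleeds on the last of the 4 days, with euthanasia on day 5. Control rats (labelled 24 h) received none of these procedures before euthanasia on day 2. Unhandled rats of day 5 were not part of the design, so for the longer handling the day and the handling cannot be told apart.

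Ribosomes build all cellular protein, and each subunit is a core of ribosomal RNA clad in small, mostly basic proteins. Most of these are made in equal numbers. The messenger RNAs of these proteins are among the most abundant in any cell, including hepatocytes, which export the plasma proteins. Most begin with a terminal oligopyrimidine (TOP) tract, a cytosine followed by a run of C and T bases (C and U in the RNA), through which mTOR signalling sets how strongly they are translated. An array reads the amount of the messenger RNA and not its translation.

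The start sites of members on which the results below turn are printed to show where such a tract lies and where it does not. The windows run from 15 bases before the annotated start to 15 bases from it onwards, 5′ to 3′ on the gene's strand, with the longest run of C and T in capitals. They come from RefSeq on GRCr8, and the promoter table used here holds 40 of the 47 members. The first 4 are proteins of the 40S subunit and the other 6 of the 60S subunit.
Rps24, chr16:96502-96531, plus strand: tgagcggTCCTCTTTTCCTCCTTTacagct
Rps9, chr1:74430423-74430452, minus strand: tccggcggccacgTTTCTCTTTgtcacggg
Rps3, chr1:163195762-163195791, minus strand: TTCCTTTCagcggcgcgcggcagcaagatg
Rpsa, chr8:128728864-128728893, plus strand: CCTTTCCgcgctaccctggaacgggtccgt
Rpl35, chr3:43165907-43165936, minus strand: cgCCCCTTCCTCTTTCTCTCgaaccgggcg
Rplp0, chr12:46718376-46718405, minus strand: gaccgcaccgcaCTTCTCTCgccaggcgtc
Rpl5, chr14:1995211-1995240, minus strand: aCTCTCTTTCCCacgtcgcttgcgtcctgg
Rpl11, chr5:153560788-153560817, minus strand: ggggaCTTgaagcttgtttggtgctgggga
Rpl18, chr1:105325255-105325284, plus strand: TCTggacctggtctagcaggaggcgccatc
Rpl6, chr12:41011676-41011705, minus strand: taTTTTTacatcactagatggcgggtgaaa

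Rps24 and Rpl35 had runs of 17 and 18 pyrimidines that spanned the annotated start, and in Rps9 and Rplp0 the runs of 9 and 8 did so too. In Rpl5, Rps3 and Rpsa runs of 11, 8 and 7 ended before the annotated start. In Rpl11, Rpl18 and Rpl6 the longest run in this window was 3, 3 and 5. A run of at least 8 of C or T, read on the gene's strand, was found within these windows for 24 of 37 members other than paralogs and pseudogenes (64.9%), against 11.4% of 27457 RefSeq promoters. A C at the annotated start followed by 4 of C or T was found for 12 of 37 (32.4%), against 2.63% of all promoters. Within the promoter window around the start, CTTCCG or its reverse complement CGGAAG, which can overlap the pyrimidine run, stood in 18 of 37 (48.6%) against 17.4%, and TATAAA or TTTATA in 4 of 37 (10.8%) against 14.3%. These matches describe the letters of the annotation, and an annotated start can lie some bases from the one used in liver.

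The deposited intensities are on a linear scale with a mean of 1.01 per array, a median of 0.118 to 0.125 and a highest value of 66.1 to 83.2. Intensities of different probe sets cannot be ranked as levels, and every comparison below is of 1 probe set across rats. The tissue label was checked against the hepatocyte list, of which all 6 markers were measured, none of them below the array median on average, and their summed intensity was 257 to 281 after 1 day, 252 to 291 after 4 days and 253 to 295 in control rats. Control rats 1, 2 and 3 stood apart from the other 27 rats in metabolic genes. The values of the members as a whole, of the members named below and of Eif5a and Nkg7 are therefore given with and without them, and those of the other gene lists with all rats. RNA integrity was read from the Gapdh control probe sets, as the 3′ signal over the 5′ signal on the log2 scale, and was 0.662 to 0.828 after 1 day, 0.701 to 0.963 after 4 days and 0.550 to 0.701 in control rats. This ratio moved with handling. Every 4-day rat (0.7009 or more) lay above every control rat (0.7006 or less), and the 1-day rats overlapped the controls little. With the ratio as a covariate, RNA integrity and handling can therefore hardly be told apart. Values from that fit are given for the members as a whole, for Eif5a and for Nkg7.

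Ribosomal protein probe sets were bright and steady. Of the 47 members, 39 had a mean intensity of at least 1, ranging from 1.99 for Rpl39 to 34.0, and are called bright below. The other 8 had means of 0.0231 to 0.996. They were all 5 paralogs and pseudogenes together with Rpl28, Rps13 and Rpl30, and are called dim. Over the 27 rats other than control rats 1, 2 and 3, the standard deviation (SD) of log2 intensity had a median of 0.0700 in the bright members and 0.446 in the dim ones. For comparison it was 0.130 in the 2852 probe sets at least as bright as Rpl39 and 0.356 in all 31042 probe sets tested. The bright members other than Rpl39 had means of 9.91 (Rpl37a) or more, so those 2852 probe sets are not matched to them in brightness. The 27 rats come from all 3 groups, so these SDs also hold any difference between groups.

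Handling left no ribosomal protein gene past the test, while most probe sets sat slightly below control. A single limma fit of log2 intensity held all 30 rats, and a change is claimed for a gene only where the p adjusted by Benjamini-Hochberg over all 31042 probe sets was under 0.1. Signed values are handled minus control and follow the deposited labels. In these values the genes that the study names as raised or lowered, as far as they were checked (24 genes), ran the opposite way to its text, so the direction of each signed value rests on the labels alone. After 1 day of handling 0 of 47 members passed, where 0.0902% of all probe sets did (0.0387% as lower), and after 4 days 0 of 47 passed, where 0.657% of all did (0.37% as lower). The smallest adjusted p of a member was 0.417 after 1 day and 0.358 after 4 days. The t-test of the methods and the exact Wilcoxon rank-sum test also let 0 members pass after adjustment. At an unadjusted p under 0.05, 8 members were lower and 0 were higher after 1 day, where 9.33% of all probe sets had such a p and 4.86% were lower with it. After 4 days 2 were lower and 0 were higher, where 11.3% of all had such a p and 5.89% were lower with it. At the same unadjusted threshold the t-test counted 23 members for 1 day, where it counted 9.11% of all probe sets, and 11 for 4 days, where it counted 10.7%. The rank-sum test counted 23 members (7.86% of all probe sets) and 9 members (9.47%) at these times. These counts exceed the 8 and 2 of limma. Its eBayes step moves the spread of each probe set towards 1 shared value, and the bright members were steadier than most probe sets. Limma was thus the stricter test for them. Rpl35 after 1 day had an unadjusted p of 0.0342 with limma and 0.000745 with the t-test. The limma counts also moved with its settings. With an intensity trend they were 15 and 4 members (3078 and 3700 of all probe sets), and with array weights 18 and 5 (2642 and 3266). With only the 2 groups in the fit they were 3 and 0 (2629 and 3137). An offset of 1 before log2 gave the most, 24 and 14 (3149 and 3820). The Gapdh ratio as a covariate gave 3 and 1 (2273 and 2453).

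The sizes were small. After 1 day 43 of 47 members had a lower mean than control, where 50.8% of all probe sets did, and the median difference of the members was -0.07 on the log2 scale, or -4.61%. After 4 days 38 of 47 were lower, where 49.5% of all probe sets were, with a median of -0.05, or -3.21%. Over all probe sets the medians were -0.0035 and 0.0022. Among the bright members alone, 38 of 39 were lower after 1 day and 34 of 39 after 4 days, where 47.9% and 47.3% of the probe sets at least as bright as Rpl39 were lower. Both subunits showed this. In the 40S subunit 12 of 12 bright members were lower after 1 day and 10 of 12 after 4 days, with medians of -0.08 and -0.05, and in the 60S subunit 26 of 27 and 24 of 27 were lower, with medians of -0.07 and -0.05. The dim members were split, 5 of 8 lower after 1 day and 4 of 8 after 4 days. Another 30 probe sets carry several ribosomal protein symbols each and name no gene, and 30 of these were lower after 1 day and 26 after 4 days, with medians of -0.06 and -0.04.

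**Figure D1:**
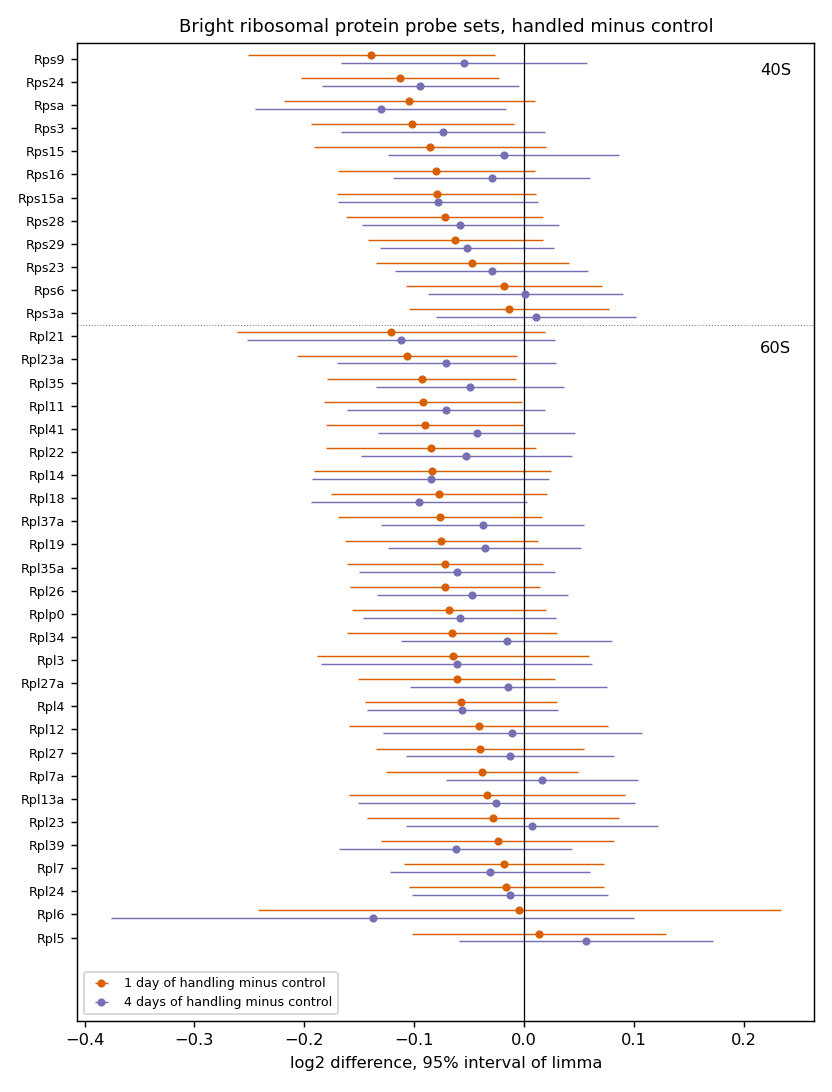
Log2 difference of the 39 bright ribosomal protein genes after 1 day (orange) and 4 days (purple) of handling, each minus control, with its 95% interval from limma, by subunit. In 38 of 39 genes the 1-day value and in 34 of 39 the 4-day value lies below 0, and the interval leaves out 0 for 7 genes after 1 day and 2 after 4 days, none of which passed after adjustment.

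The intervals bound what these arrays could have missed. The 95% interval of the difference lay within 0.3 on either side of 0 on the log2 scale for 39 of 39 bright members after 1 day and for 38 of 39 after 4 days. The exception was Rpl6, a protein of the 60S surface, with -0.38 to 0.10 after 4 days. Among the dim members 1 of 8 was bounded in this way after 1 day and 2 of 8 after 4 days, so little can be said of them in either direction.

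The members did not move independently of each other. Each bright member was set against its own mean log2 intensity over the 30 rats, and the 39 deviations were averaged in each rat. This mean deviation ran from -0.11 to 0.02 after 1 day (median -0.02) and from -0.09 to 0.07 after 4 days (median -0.01). In control rats it ran from -0.07 to 0.12 (median 0.04). The SD of this mean deviation over the 30 rats was 0.0558, close to the median SD of a single bright member, 0.0717. The groups overlapped. Handled rats 5 and 7 of the 1-day group and rat 8 of the 4-day group had 1 of 39 members above its own median each, while rat 4 of the 4-day group had 36 of 39 and control rat 8 had 39 of 39. A count of members on 1 side of 0 is therefore not a count of separate results, and the members are not replicates of the handling.

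**Figure D2:**
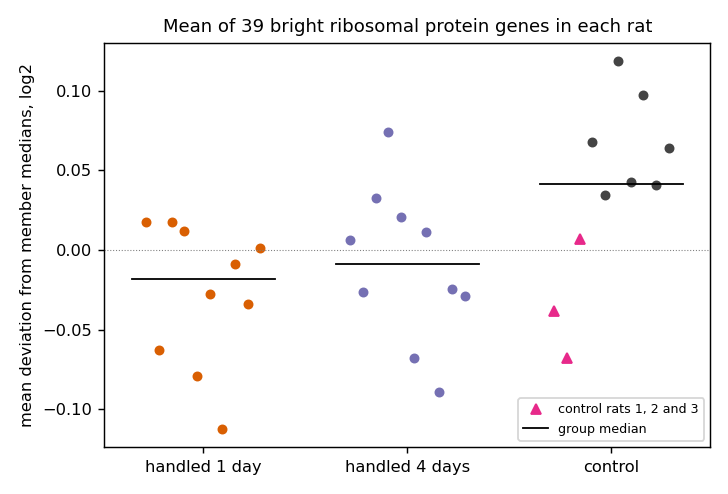
Mean deviation of the 39 bright ribosomal protein genes from their own means (log2) in each of the 30 rats, by group. Lines are group medians and triangles are control rats 1, 2 and 3. The axis title names medians, but the values are deviations from each gene's mean over the 30 rats. The 1-day rats lie between -0.11 and 0.02, the 4-day rats between -0.09 and 0.07, and the controls between -0.07 and 0.12, with the triangles lowest among the controls.

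Control rats 1, 2 and 3 were the lowest controls in this mean deviation, at -0.0385, -0.0675 and 0.00680. The other 7 control rats lay at 0.0344 to 0.119, above every 1-day rat. The 3 rats were set apart by their values. The paper describes 3 slightly different control samples without naming them, found no quality ground to exclude them and kept every sample. Leaving out the lowest controls raises the control mean of this measure, so this separation follows in part from the choice of rats. The same holds for the larger differences and smaller p of members without these rats, here and below. Without the 3 rats the median difference of the members was -0.10 after 1 day and -0.06 after 4 days, with 43 of 47 members lower in both and still 0 passing. At an unadjusted p under 0.05 the counts were then 20 and 8, where 8.5% and 11.4% of all probe sets had such a p. The smallest adjusted p was 0.332 after 1 day, for Rpl14, and 0.171 after 4 days, for Rpl18. With the Gapdh ratio as a covariate and all rats kept, the medians were -0.06 and -0.05, 41 and 37 of 47 were lower and 0 passed. This ratio nearly coincided with the groups, so the covariate can hardly tell RNA integrity from handling. The part of RNA integrity in the difference was not tested beyond it. In bulk liver, fewer cells of a type and less RNA per cell cannot be told apart.

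**Figure D3:**
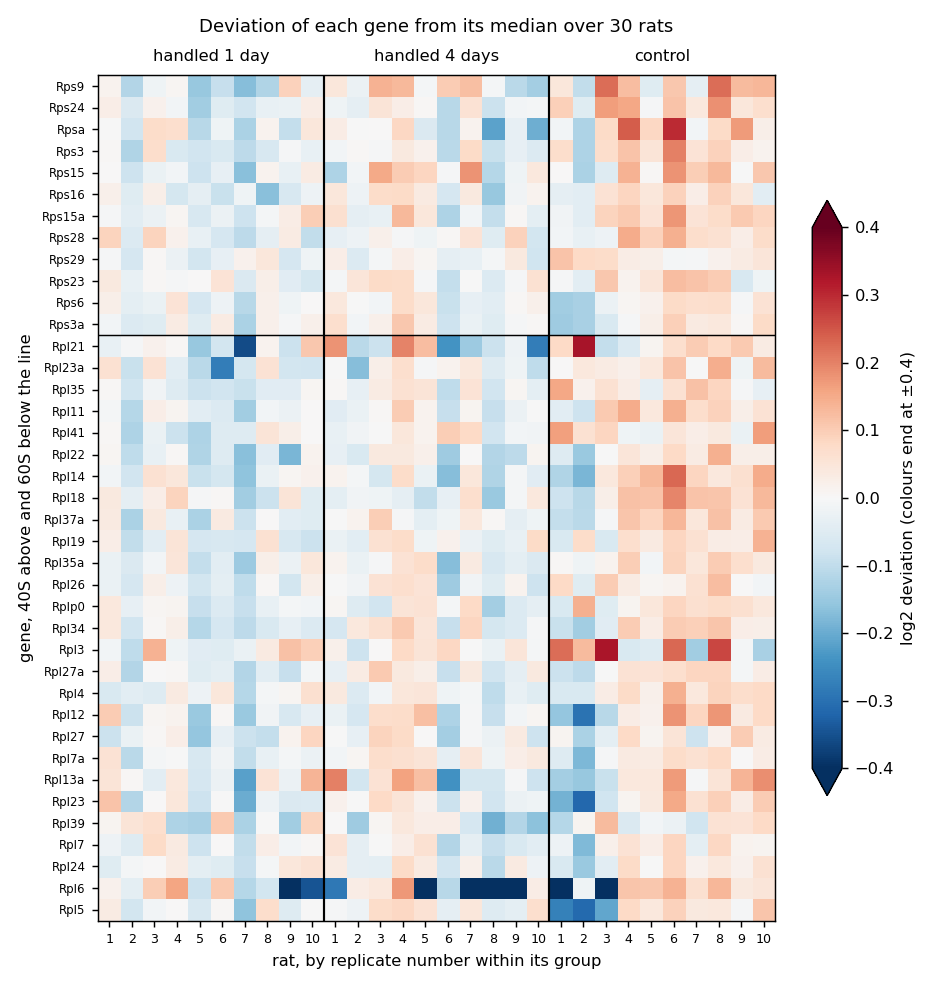
Log2 deviation of each bright ribosomal protein gene from its median over 30 rats (colour, ending at 0.4 on either side), with 1 line per gene and 1 column per rat, handled 1 day, handled 4 days and control. Columns tend to be of 1 colour, as in 1-day rat 7 (below) and control rats 6 and 8 (above), whereas Rpl6 and, in control rats 1 to 3, Rpl5 depart from their columns.

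Among the proteins of the small subunit, Rps24, which human cells need to mature the 18S ribosomal RNA, had the smallest p after 1 day. Its intensity was 17.7, 19.1 and 19.9 (lowest, median and highest) after 1 day and 18.0, 19.3 and 20.2 after 4 days, against 18.8, 20.6 and 22.1 in control rats. The handled rats lay low in or below the control range, which they overlapped. The log2 difference was -0.11 (SE 0.044) after 1 day, with an adjusted p of 0.417, and -0.09 (SE 0.044) after 4 days, with an adjusted p of 0.407, and neither passed. It was -0.12 and -0.10 without control rats 1, 2 and 3. A second, dimmer probe set of Rps24, with a mean of 0.227, gave -0.10 and -0.02.

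Rps9, a protein of the 40S body whose yeast counterpart helps to keep decoding accurate, had 14.8, 15.9 and 17.7 after 1 day and 15.1, 16.8 and 18.3 after 4 days, against 15.5, 18.0 and 19.4 in control rats. Its difference after 1 day, -0.14 (SE 0.055), was the largest below 0 among the bright members and did not pass, with an adjusted p of 0.423. After 4 days it was -0.05, with an adjusted p of 0.755, and without control rats 1, 2 and 3 the differences were -0.15 and -0.06. The 1-day and control rats overlapped between 15.5 and 17.7.

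Rps3, which lines the path where the messenger RNA enters, had 11.7, 12.2 and 13.3 after 1 day and 11.8, 12.6 and 13.4 after 4 days, against 11.6, 13.3 and 14.6 in control rats. The control range enclosed both handled ranges, and the control median lay above both handled medians. The differences were -0.10 (SE 0.045) and -0.07, with adjusted p of 0.487 and 0.561, and -0.12 and -0.10 without control rats 1, 2 and 3.

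Rpsa, a protein of the 40S subunit that also bears the name laminin receptor, had the smallest p of any member after 4 days. Its intensity was 11.96, 13.0 and 13.7 after 1 day and 11.2, 12.9 and 13.8 after 4 days, against 11.98, 13.7 and 16.0 in control rats. Control rats 4, 6 and 9 lay above every handled rat, and the other controls overlapped with them. The differences were -0.10 (SE 0.056) and -0.13 (SE 0.056), with adjusted p of 0.586 and 0.358, and they were -0.15 and -0.17 without control rats 1, 2 and 3. The other probe sets of Rpsa gave -0.00 and -0.06 after 1 day and -0.05 and -0.04 after 4 days.

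Rps15a, a protein of the 40S body, had 1 of the 4 smallest p after 4 days. Rps6, the protein that S6 kinase phosphorylates downstream of mTOR, is given for its role. Rps15a had 17.2, 18.0 and 19.49 after 1 day and 16.7, 17.9 and 19.9 after 4 days, against 17.7, 19.2 and 20.6 in control rats, with differences of -0.08 and -0.08 and adjusted p of 0.605 and 0.520, and -0.10 and -0.10 without control rats 1, 2 and 3. Rps6 had 25.2, 26.9 and 28.4 after 1 day and 25.6, 27.3 and 28.7 after 4 days, against 24.8, 27.5 and 28.8 in control rats, so its ranges nearly coincided. Its differences were -0.02 and 0.00. They became -0.06 and -0.04 without control rats 1, 2 and 3, of which rats 1 and 2 had the lowest Rps6 of all, 24.8 and 24.9.

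Of the large subunit, Rpl35, which sits by the exit of the nascent chain, had 22.2, 22.8 and 23.7 after 1 day and 21.98, 23.7 and 24.6 after 4 days, against 23.0, 24.4 and 26.3 in control rats. The 1-day rats had the lowest centre, and their range reached into that of the controls. The difference was -0.09 (SE 0.042) after 1 day, with an adjusted p of 0.493, and -0.05 after 4 days, with an adjusted p of 0.701. Without control rats 1, 2 and 3 these were -0.08 and -0.04. Rpl35 was also the only member under the unadjusted threshold of the methods, 0.001, with their t-test after 1 day (p = 0.000745, adjusted p = 0.175).

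Rpl18, a core protein of the large subunit, had the smallest p of any member after 4 days once control rats 1, 2 and 3 were left out. It had 15.1, 16.7 and 17.8 after 1 day and 15.05, 16.4 and 17.5 after 4 days, against 15.5, 18.0 and 19.1 in control rats, with 15.8, 15.5 and 17.0 in control rats 1, 2 and 3. Those 3 rats lay among the handled ones. The differences were -0.08 and -0.10 (SE 0.048 after 4 days), with adjusted p of 0.650 and 0.462, and without the 3 rats -0.13 and -0.15, with adjusted p of 0.362 and 0.171.

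Rplp0, the base of the stalk that recruits the elongation factors, had 16.8, 17.6 and 18.4 after 1 day and 16.3, 17.6 and 18.9 after 4 days, against 17.1, 18.6 and 19.7 in control rats. Each handled group overlapped the controls over most of its range. Its differences were -0.07 and -0.06, with adjusted p of 0.655 and 0.644, and -0.08 and -0.07 without control rats 1, 2 and 3. Rplp0 is often used as a reference transcript, and its SD of log2 intensity is within the range of 0.0378 to 0.134 of the bright members other than Rpl6.

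Rpl39, a short protein that lines the exit tunnel and the dimmest bright member, had 1.83, 2.02 and 2.17 after 1 day and 1.76, 1.97 and 2.08 after 4 days, against 1.86, 2.01 and 2.20 in control rats. The 3 ranges nearly coincided, with differences of -0.02 and -0.06, the same to 2 decimals without control rats 1, 2 and 3. Besides Rps24, Rps9, Rps3 and Rpl35, the members with an unadjusted p under 0.05 after 1 day were Rpl11, Rpl23a, Rpl41 and the dim Rpl3l. After 4 days they were Rpsa and Rps24.

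Rpl5 and Rpl11 form the 5S particle with the 5S ribosomal RNA, which also binds Mdm2 when ribosome assembly is disturbed, and their values are given side by side. Rpl11 had 20.5, 22.3 and 23.0 after 1 day and 21.2, 22.4 and 24.2 after 4 days, against 21.3, 23.6 and 25.0 in control rats. Its differences were -0.09 (SE 0.044) and -0.07, with adjusted p of 0.525 and 0.567, and -0.12 and -0.10 without control rats 1, 2 and 3. Rpl5 had 20.8, 23.1 and 24.4 after 1 day and 22.4, 23.6 and 24.6 after 4 days, against 18.7, 23.9 and 25.1 in control rats. The 3 lowest of these were control rats 1, 2 and 3, at 19.2, 18.7 and 20.1, below the range of 20.8 to 25.1 of the other 27 rats. Rpl5 was therefore 0.01 and 0.06 above control after 1 and 4 days with all rats, and -0.08 and -0.04 without these 3 rats, with no value past the test.

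**Figure D4:**
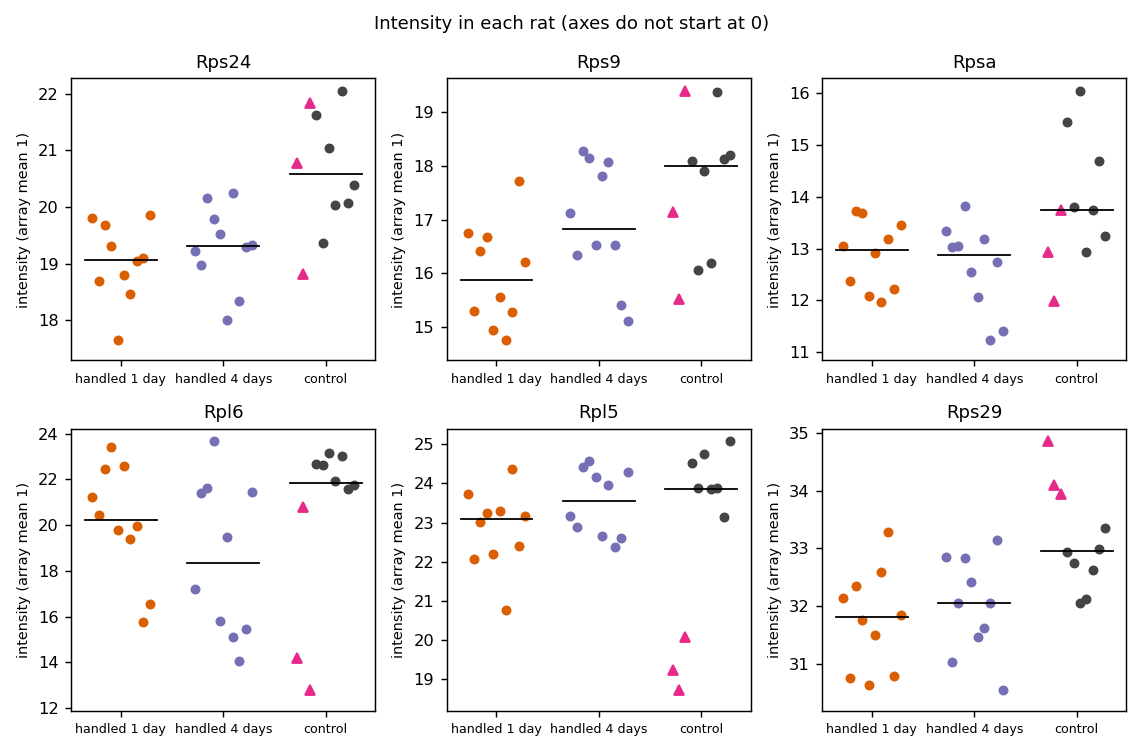
Intensity of Rps24, Rps9, Rpsa, Rpl6, Rpl5 and Rps29 in each rat (array mean 1, axes not starting at 0), handled 1 day, handled 4 days and control, with group medians as lines and control rats 1, 2 and 3 as triangles. The triangles lie below all other rats in Rpl5 (18.7 to 20.1) and above them in Rps29 (33.9 to 34.9), and Rpl6 spreads from 12.8 to 23.7.

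Few ribosomal protein genes separated control rats 1, 2 and 3 from the rest, at a share near that of all probe sets. All 3 rats lay outside the range of the other 27 in 2 of 47 members, below it in Rpl5 and above it in Rps29, where the share of all probe sets was 5.98%, with 3.03% below and 2.95% above. Rps29, a small zinc-binding protein of the 40S head, was named after its values were seen. It had 30.6, 31.8 and 33.3 after 1 day and 30.5, 32.1 and 33.2 after 4 days, against 32.0, 33.0 and 34.9 in control rats, of which rats 1, 2 and 3 had 34.9, 34.1 and 33.9. The other 27 rats reached 33.4, and the differences from control were -0.06 and -0.05, or -0.04 and -0.03 without the 3 rats. Set against the median of the other 27 rats, the median of the 3 rats was lower in 27 of 39 bright members and higher in 12, with a median of -0.05 and a range of -0.60 to 0.23. It was -0.02 in the 40S genes and -0.06 in the 60S genes, and -0.01 over all probe sets. These are descriptions, because the 3 rats were set apart by their values.

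Rpl3, which reaches into the peptidyl transferase centre, was the bright member highest in the 3 rats. It had 18.1, 19.2 and 21.3 after 1 day and 18.3, 19.6 and 20.5 after 4 days, against 17.6, 20.2 and 24.3 in control rats, with 22.6, 21.2 and 24.3 in control rats 1, 2 and 3. Control rats 6 and 8 were as high, at 22.7 and 23.4. The differences were -0.06 and -0.06 with all rats and -0.0018 and 0.0012 without the 3 rats, so the lower mean of Rpl3 after handling was not seen without them. The second probe set of Rpl3 had 1.63, 1.70 and 1.57 in the 3 rats, above the 1.12 to 1.55 of the others.

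Rpl23, which lies on the face that meets the small subunit, was low in the 3 rats, with 18.0, 16.6 and 19.46. It had 17.9, 20.0 and 22.3 after 1 day and 19.4, 20.7 and 21.7 after 4 days, against 16.6, 21.1 and 22.8 in all control rats. Rats 1 and 2 were at the low end of a range that otherwise overlapped throughout. The differences were -0.03 and 0.01 with all rats and -0.11 and -0.07 without the 3 rats.

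Rpl6 stood out by its spread. It had 15.8, 20.2 and 23.4 after 1 day and 14.0, 18.3 and 23.7 after 4 days, against 12.8, 21.8 and 23.1 in control rats. Its SD over the 27 rats was 0.226, where the next bright member had 0.134. The widest gap between neighbouring rats lay between 17.2 and 19.4, with 9 rats below it, 2 after 1 day, 5 after 4 days and 2 among the controls, which were control rats 1 and 3 at 14.2 and 12.8. The differences were -0.00 and -0.14 (SE 0.117), with an adjusted p of 0.697 after 4 days. Without control rats 1, 2 and 3 they were -0.16 and -0.30, with an unadjusted p of 0.00712 and an adjusted p of 0.221 after 4 days, still short of the threshold.

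The dim members gave wide errors. Rpl28, of the 60S subunit, had 0.0246, 0.0332 and 0.0705 after 1 day and 0.0168, 0.0228 and 0.0568 after 4 days, against 0.0150, 0.0315 and 0.0462 in control rats, with differences of 0.35 and -0.02, or 0.30 and -0.08 without control rats 1, 2 and 3. All of these lie below the array median of 0.118 to 0.125, and a probe set this dim need not report its gene. Rpl30, also of the 60S subunit, had 0.120, 0.173 and 0.224 after 1 day and 0.157, 0.173 and 0.210 after 4 days, against 0.121, 0.169 and 0.255 in control rats, with no shift between the medians beyond the ranges. Its differences were -0.06 and 0.03 with all rats and 0.01 and 0.10 without control rats 1, 2 and 3.

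Rpl3l, known in other mammals as the paralog of Rpl3 used in muscle, had a mean of 0.0231, a difference of -0.46 (SE 0.209) after 1 day with an adjusted p of 0.496, and -0.17 after 4 days. Without control rats 1, 2 and 3 it gave -0.48 and -0.19. Rps4x-ps1 gave 0.02 and 0.41, or 0.11 and 0.50 without these rats, and no value passed. Rps4y2 gave -0.30 and -0.19, or -0.12 and -0.0049 without them and 0.12 and 0.28 when the Gapdh ratio also entered that fit, and had 0.573, 0.618 and 0.320 in control rats 1, 2 and 3. Rps13, of the 40S subunit, at a mean of 0.0850, had 0.0451, 0.0454 and 0.0650 in these rats, and its differences were 0.04 and 0.17 with all rats and -0.23 and -0.09 without them.

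Between the handled groups, 0 of 47 members passed for 4 days minus 1 day, as did 0% of all probe sets, and 0 members had an unadjusted p under 0.05, where 5% of all did. The t-test of the methods and the rank-sum test gave 0 after adjustment and 1 and 2 members at an unadjusted p under 0.05, where they counted 5.91% and 5.28% of all probe sets. The smallest adjusted p was 0.995. The 4-day mean was above the 1-day mean in 40 of 47 members, with a median of 0.03, and below it in 7, where 48.5% of all probe sets were below 0. For 38 of 39 bright members the 95% interval lay within 0.3 of 0, and Rpl6 was again the exception, with -0.37 as its lower end.

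The rest of the translation machinery was read from lists of genes in the same fit. Mitochondrial ribosomal proteins, which serve a separate ribosome, were lower in 60 of 73 genes after 1 day and in 61 of 73 after 4 days, with medians of -0.06 and -0.06, and 0 passed. Their smallest p was that of Mrpl2, a protein of the large mitochondrial subunit, with -0.28 (SE 0.075) at both times and adjusted p of 0.205 and 0.112. Genes of ribosome assembly and ribosomal RNA synthesis were lower in 34 of 48 after 1 day and 26 of 48 after 4 days, with medians of -0.05 and -0.01, and 0 passed. Translation initiation factors were lower in 20 of 29 and 18 of 29, with medians of -0.03 and -0.02, and 0 passed. Of the genes of mTOR and its regulators, 14 of 23 and 15 of 23 were lower, with medians of -0.02 and -0.05, and 0 passed.

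Other messenger RNAs known to carry a TOP tract, among them elongation factors, had medians above 0. Of the 13 measured out of a list of 22, 5 were lower after 1 day and 3 after 4 days, with medians of 0.03 and 0.04, and 0 passed. Rack1, a scaffold protein on the head of the 40S subunit that belongs to the ribosome under another symbol and is in that list too, gave -0.05 after 1 day and 0.01 after 4 days. The difference between these genes and the ribosomal proteins was not tested.

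Of the 8 elongation factors 4 were lower at each time. After 4 days 1 of them passed, as the only gene of these translation lists, where 0.657% of all probe sets passed. Eif5a, which carries hypusine and helps the ribosome through stretches such as consecutive prolines, had 7.09, 7.76 and 8.70 after 1 day and 6.84, 7.38 and 8.11 after 4 days, against 8.08, 8.85 and 10.2 in control rats. The highest 4-day rat only just reached the range of the controls. By the labels Eif5a was lower after 4 days, with a log2 difference of -0.25 (SE 0.055) and an adjusted p of 0.0417. After 1 day the difference was -0.18 with an adjusted p of 0.288. The 4-day value was -0.25 without control rats 1, 2 and 3, with an adjusted p of 0.0591. It was -0.19 once the Gapdh ratio entered the fit, with an adjusted p of 0.499, which did not pass. That ratio separated the 4-day rats from the controls completely. With only the 2 groups in the fit the adjusted p was 0.139.

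Among markers of the cells that liver can hold, only Nkg7, a gene of cytotoxic lymphocytes, passed. It had -0.42 after 4 days and an adjusted p of 0.0902, where 0.657% of all probe sets passed. Its adjusted p was 0.0559 without control rats 1, 2 and 3. It did not pass with the Gapdh ratio in the limma fit (adjusted p 0.327), with only the 2 groups (0.188), with a replicate block (0.115), with the t-test (0.126) or with the exact rank-sum test (0.130). When each rat was left out in turn, the adjusted p ran between 0.0651 and 0.156, and the call was lost when any 1 of 7 control rats, 7 rats of the 4-day group or rat 5 of the 1-day group was left out. The summed intensity of 10 T and NK cell markers was 1.28 to 1.73 after 1 day and 1.02 to 1.65 after 4 days, against 1.17 to 1.92 in control rats, with 6 of the 10 below the array median. The 6 markers of dividing cells summed to a median of 2.57 after 1 day and 2.58 after 4 days, against 2.99 in control rats, and the 5 erythroid markers to 20.5 and 20.3, against 15.9. Other lists also shifted. The 4 bile duct markers summed to medians of 0.672 and 0.609, against 0.791, and the 7 Kupffer cell and macrophage markers to 25.0 and 20.8, against 23.7. In every marker list the ranges overlapped between groups. The part of these cells in the ribosomal protein values was not tested.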

How the data were processed

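The authors deposited 1 intensity per probe set and array on a linear scale; the values show arrays scaled to a mean near 1, and the summarisation is not given in the sources used here. Per the methods, RNA was labelled with the 3′ IVT Express kit and log10 ratios were made in Rosetta Resolver 7.2; those ratios were not used. The array holds 31099 probe sets, and 31042 entered the tests after removal of 57 Affymetrix control sets. Probe sets were named from the platform annotation, where 20826 carry 1 symbol, 436 several and 9780 none. All 47 member symbols were found in RefSeq.

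Intensities were turned to log2 with no offset and fitted in R 4.3.3 with limma 3.58.1 (lmFit, eBayes, 3 groups, two-sided). No filter on low values was used. The rats are separate animals, and the highest correlation between arrays was 0.976. The number of arrays, 10 per group, limits the precision. The fit was tested on simulated data. Figures used Python 3.11.15 and matplotlib 3.10.9.

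Members, gene lists and tests were chosen with earlier results of these data known. Members were named with values where they passed the test, had the 4 smallest p in a comparison with control, had the 4 largest SDs, lay farthest in control rats 1, 2 and 3 (4 each way), or for their role (Rplp0, Rps6, Rpl5, Rpl11, Rps3, Rpl3, Rpl39, Rpsa and Rack1). Second probe sets are given for Rps24, Rpsa and Rpl3. Alternatives were offsets of 0.05 and 1, quantile and median scaling, leaving out the dimmest 40% of probe sets, array weights, an intensity trend, the 2 groups alone, a replicate block, the Gapdh covariate, the t-test of the methods, the rank-sum test, other thresholds, other probe set and membership rules, and leaving out control rats 1, 2 and 3 or each rat in turn.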

Additional observations from a re-analysis of the deposited data

How the results depend on the processing

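The number of members that passed was 0 in each comparison under every alternative but 2. With an offset of 1 before log2, 1 member passed after 1 day and 1 after 4 days, both times Rps24, at -0.11 (adjusted p 0.0788) and -0.09 (adjusted p 0.0993), where 127 and 467 of all probe sets passed (0.409% and 1.5%). With the t-test of the methods at an unadjusted p under 0.001, 1 member passed after 1 day, Rpl35, where 163 of all probe sets did (0.525%). Control rats 1, 2 and 3 lay outside the other 27 in 1 of the 30 probe sets with several ribosomal protein symbols, against 2 of 47 members.

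Leaving out each rat in turn, the median difference of the members ran from -0.0765 to -0.0608 after 1 day, from -0.0556 to -0.0380 after 4 days and from 0.0173 to 0.0371 for 4 days minus 1 day, with 0 to 0 members passing. Signs of uncalled members near 0, such as Rpl5, did change without control rats 1, 2 and 3, as given above. The use of only bright members, of probe sets with several symbols, and of the Gapdh covariate together with leaving out control rats 1, 2 and 3 was added after seeing the data. The last gave medians of -0.10 and -0.07, with 0 passing.

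The labels give replicate numbers but no pairing of rats. Deviations of same-numbered rats from their group means correlated at -0.0382 to 0.118, with 1 of 30 pairs above 0.1. In 11 of the 30 pairs the same number was the best match among the 10 rats of the other group. That is more often than a random pick among 10 would give, and its source was not tested. With a replicate block, the medians were -0.0682, -0.0471 and 0.0273, 0 members passed, and 2 and 85 of all probe sets passed after 1 and 4 days, against 28 and 204 without it.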
